A study of Mus musculus with 15 samples.

Results

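The retinoblastoma pathway was followed at the RNA level through 10 genes: the pocket proteins Rb1, Rbl1 and Rbl2, the E2F factors E2f1, E2f2, E2f3, E2f4, E2f7 and E2f8, and the E2F partner Tfdp1. They were taken by name, as the pocket proteins and E2F factors of that pathway, out of 36144 genes in the deposited tables. RNA of whole tissue was sequenced from 12 stomach tumors of C57BL/6 mice, 3 each from the antrum, the corpus and, in the cardia, the greater and the lesser curvature, and from 3 samples of normal stomach tissue. All 5 groups carry the same label for genotype, Pou2f3-CreERT with Rb1 fl/fl, Trp53 fl/fl and LSL-MycT58A, for treatment, tamoxifen injected into the abdomen at 50 mg/kg on 1 day, for time, 5 weeks, and for age, 7 to 8 weeks. Pou2f3 is the transcription factor that specifies the chemosensory tuft cells. After tamoxifen the Cre it drives removes the floxed segments of Rb1 and Trp53 and switches on a stabilized Myc in Pou2f3-expressing cells and their descendants, so other cells of a tumor or of normal tissue keep intact Rb1. Neither the part of the stomach that gave the normal tissue nor whether the samples came from separate animals is stated, so a p-value reflects no more than how far these samples spread, and site and tumor state cannot be told apart where normal tissue came from another part. Samples are named by site and replicate number, such as corpus 1.

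Pocket proteins bind E2F factors and keep them from activating genes for DNA replication. Cyclin-dependent kinases phosphorylate pocket proteins as a cell enters the cycle, which frees the activating factors E2f1, E2f2 and E2f3. The pocket protein p130, encoded by Rbl2, acts mainly in resting cells together with E2f4, whereas p107, encoded by Rbl1, is itself an E2F target made in cycling cells. The atypical factors E2f7 and E2f8 bind DNA without a DP partner and repress E2F targets later in the cycle. E2F1 to E2F6 bind DNA together with a DP protein such as the product of Tfdp1.

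The promoter windows of these genes are shown because E2F factors are known to regulate several of them, including Rbl1. In the RefSeq windows on GRCm38.p6, which run from 250 bases before to 50 bases after a start site, 8 of the 10 genes have an entry. A search of both strands for TTTCCCGC, TTTCGCGC, TTTGCCGC and TTTGGCGC found at least 1 of these letter strings in a window of 5 of those genes, Rbl1, E2f2, E2f3, E2f7 and Tfdp1, while 2.26% of all 32851 windows in the table hold any of them. These 8 genes have 11 windows, of which 6 hold an E2F string, and the overlapping windows of Tfdp1 share theirs. The cell cycle element TTTGAA was found in a window of 4 genes, Rbl2, E2f2, E2f3 and E2f8, and in 17.9% of all windows. In E2f2 it lies in a window whose start site is 8388 bases inside the gene. No match to TTTGAA overlapped an E2F match in these genes. Stretches of 120 bases are printed 5′ to 3′ in the gene's direction, in lower case with the E2F letters in capitals, for 4 genes that were higher in tumors and for Rbl2, which was lower and has none of the 4 E2F strings in its window. E2f1 and E2f8, which were higher, have none in their windows either. The start site of the E2f1 window is 466 bases inside the gene as annotated by GENCODE. That window therefore leaves out the sequence before the annotated gene start, and strings there were not searched. The printed stretches are Rbl1 at chr2:157204535-157204654 and E2f3 at chr13:29986064-29986183, both on the minus strand. The others are Tfdp1 at chr8:13338631-13338750, E2f7 at chr10:110745189-110745308 and Rbl2 at chr8:91069937-91070056, all on the plus strand.
Rbl1: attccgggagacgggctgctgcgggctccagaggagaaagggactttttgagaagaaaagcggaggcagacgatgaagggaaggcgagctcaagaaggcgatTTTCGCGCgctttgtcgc
E2f3: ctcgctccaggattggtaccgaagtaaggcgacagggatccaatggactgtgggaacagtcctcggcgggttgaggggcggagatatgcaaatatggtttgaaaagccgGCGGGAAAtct
Tfdp1: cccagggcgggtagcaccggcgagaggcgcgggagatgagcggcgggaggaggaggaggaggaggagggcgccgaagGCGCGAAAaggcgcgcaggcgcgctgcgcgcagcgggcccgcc
E2f7: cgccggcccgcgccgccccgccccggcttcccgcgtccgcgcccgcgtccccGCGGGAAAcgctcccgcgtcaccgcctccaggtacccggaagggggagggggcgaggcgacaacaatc
Rbl2: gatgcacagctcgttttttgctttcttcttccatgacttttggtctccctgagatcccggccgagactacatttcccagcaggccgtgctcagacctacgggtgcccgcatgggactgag
The capitals begin at position -18 from the start site in Rbl1, -11 in E2f3, -43 in Tfdp1 and -198 in E2f7, where -1 is the base just before the start. A match is only a string of letters, and no factor's binding was measured here.

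Libraries held 7957165 to 21564972 counts. Tumors and normals also differed in tissue makeup. The summed level of 8 smooth muscle markers was 187 to 1140 CPM in tumors and 4390 to 6320 CPM in normals (CPM, counts per 1000000 counts after scaling), and all 8 were lower. Of 7 parietal cell markers, the acid-secreting cells of the stomach, 5 were lower, with sums of 17.5 to 7550 CPM in tumors and 5170 to 9820 CPM in normals. Chief cell markers summed to 2.16 to 80800 CPM in tumors and 61000 to 136000 CPM in normals, with 2 of 3 tested markers lower and Lipf at 0 in all normals. Markers of all epithelium summed to 158 CPM in the lowest tumor, 4320 CPM at the median and 10600 CPM in the highest, against 3800 to 11800 CPM in normals, with none of 5 called. Squamous forestomach markers summed to 0.43 to 1720 CPM in tumors, against 2.06 CPM for normal 1, 1.53 CPM for normal 3 and 5770 CPM for normal 2, which thus stood apart from the other normals. Immune cell markers were higher in every tumor, at 35.5 to 82.4 CPM, than in the normals, at 21.9 to 30.4 CPM, and 2 of 5 tested were called. On the first principal component of all genes, which held 46.9% of the variance, greater curvature 2 at 84.9 and corpus 1 at 86.3 lay among the normals at 62.1, 102 and 123.9. Greater curvature 2 and corpus 1 had the highest chief cell sums of the tumors, 44300 and 80800 CPM, and the highest parietal sums, 3320 and 7550 CPM. Their sums of dividing-cell markers were the lowest of the tumors, 510 and 637 CPM. Their smooth muscle sums, 659 and 409 CPM, lay within the range of the other tumors. The libraries differed in other markers. Greater curvature 2 had the highest fibroblast sum of the tumors, 5580 CPM, against 666 CPM in corpus 1 and 451 to 613 CPM in normals. It also had the lowest neuroendocrine sum, 219 CPM, against 655 CPM in corpus 1 and 263 to 1180 CPM in normals. Tuft cell markers summed to 46.4 to 388 CPM in tumors and 118 to 477 CPM in normals, with 1 of 4 tested markers higher. Of the engineered genes, Myc was higher in tumors, by 2.13 on the log2 scale (adjusted p 0.0158), whereas Trp53 at 0.31 (adjusted p 0.377) and Pou2f3 at -1.20 (adjusted p 0.273) did not pass. In whole tissue, fewer cells that express a gene and less RNA per cell cannot be told apart.

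Rb1, the targeted pocket protein, was not measurably lower in whole tumors. Its level was lowest at 23.3 CPM, median 37.6 CPM and highest at 47.2 CPM over the 12 tumors, against 36.1, 49.5 and 42.7 CPM in the 3 normals. In CPM the groups overlapped, with 5 tumors below all normals and none above. The log2 fold change was -0.22 (SE 0.19, adjusted p 0.372 by edgeR's quasi-likelihood test with Benjamini-Hochberg adjustment over all genes tested, which gives every adjusted p here unless another tool is named), and on the deposited TPM values (transcripts per 1000000, a measure per length) the sign turned, to 0.37 with limma (adjusted p 0.127). In TPM, 11 of the 12 tumors lay above all normals and 0 below, so the order of the libraries depends on the table used. The median gene stood at a log2 fold change of 0.43 in TPM and -0.04 in counts, and relative to the TPM median Rb1 stood at -0.06. The files give 1 value per gene, so reads from the floxed segment and from the rest of Rb1 are not separated and the gene's total is no check on recombination. Rb1 lies at chr14:73183673-73325822 on the minus strand in GENCODE M21 on GRCm38, where its exons overlap those of Lpar6 and of Rcbtb2 on the opposite strand, and whether counting used strand is not given, so its counts are uncertain to that extent.

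The other pocket proteins moved in opposite directions. Rbl1, which encodes p107, reached a lowest level of 23.8 CPM, a median of 29.5 CPM and a highest level of 32.5 CPM in tumors, against 9.62, 18.1 and 21.2 CPM in normals. Every tumor stood above every normal, and the tumors lay close together, at 28.9 ± 2.94 CPM (SD, n = 12) beside 16.3 ± 5.98 CPM in normals (SD, n = 3). It was higher by a log2 fold change of 0.82 (SE 0.21, adjusted p 0.0124). Rbl1 is at chr2:157145893-157204534.

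Rbl2, which encodes p130, was lowest at 22.5 CPM, median 29.9 CPM and highest at 48.6 CPM in tumors, against 96.0, 46.8 and 55.5 CPM in normals. In CPM, 11 tumors lay below all normals, the exception being greater curvature 2 at 48.6 CPM. The normals were spread widely, with normal 1 far above the others. The log2 fold change was -1.07 (SE 0.23, adjusted p 0.00698), a fold of 0.476. Without normal 1 it was -0.70 with an adjusted p of 0.0578, so the call rests on that library. On TPM it was -0.38 with an adjusted p of 0.181 by limma, or -0.81 relative to the median gene. In TPM, 2 of the 12 tumors lay below all normals. Smooth muscle markers were lower in all tumors and most parietal and chief cell markers were lower in tumors as a group, and their part in the lower Rbl2 was not tested. The gene lies at chr8:91070057-91123844, where its exons overlap those of Aktip and Gm45464 on the opposite strand.

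Within a library, the ratio of Rbl1 to Rbl2 does not depend on how libraries are scaled. In TPM it was 0.933, 0.821 and 0.874 in antrum tumors, 0.962, 0.485 and 1.41 in greater curvature tumors, 1.1, 1.12 and 1.06 in lesser curvature tumors, and 0.624, 0.964 and 0.932 in corpus tumors, against 0.0874, 0.418 and 0.344 in normals. All 12 tumors stood above all 3 normals, and greater curvature 2 and corpus 1 were the lowest of them. The mean log2 ratio was -0.14 ± 0.40 in tumors (SD, n = 12) and -2.11 ± 1.23 in normals (SD, n = 3), a difference of 1.97 or 3.91-fold (exact two-sided permutation test over samples, p = 0.0022, the smallest that 455 arrangements can give). Without normal 1, the normal with the lowest ratio, the difference was 1.26 (exact permutation p = 0.011). This was 1 of 2 ratios tested. Of the summed pocket protein TPM, Rbl1 made up 29.8 ± 4.96% in tumors and 12.9 ± 5.85% in normals, Rbl2 made up 32.5 ± 4.47% in tumors and 52.3 ± 16.4% in normals, and Rb1 made up 37.7 ± 5.04% in tumors and 34.8 ± 10.9% in normals (SD, n = 12 and n = 3). The sum itself was 36.1 ± 4.62 TPM in tumors and 30.5 ± 5.51 TPM in normals. In TPM the median gene was also higher in tumors, at a log2 fold change of 0.43. These sums therefore do not show a rise relative to other genes.

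**Figure D1:**
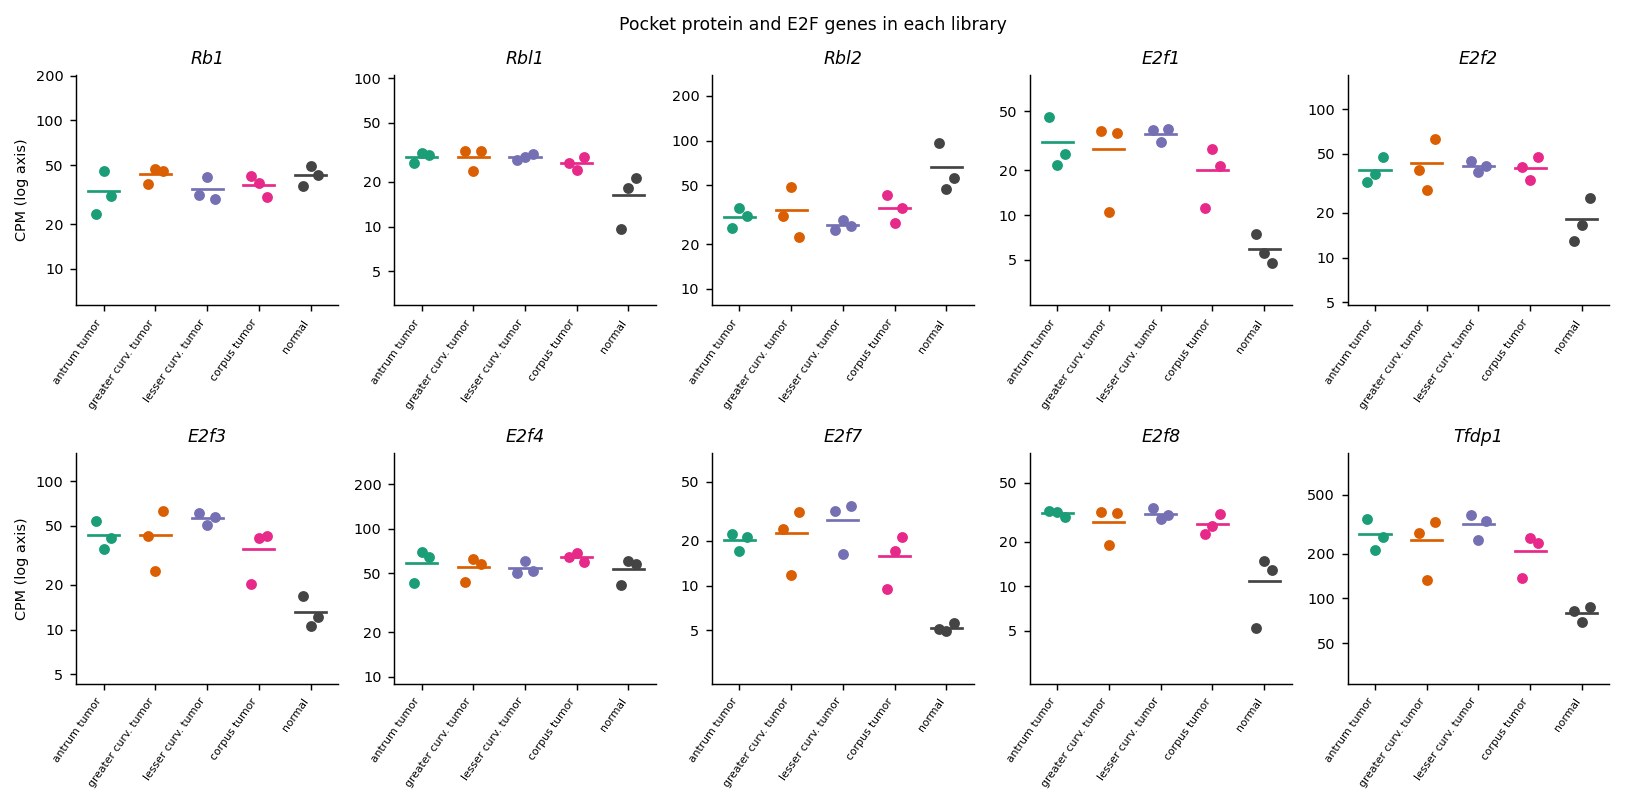
CPM on a log axis of each of the 10 genes in every library, by tumor site and in normal tissue; points are libraries and lines are the mean of 3. Rbl1, E2f1, E2f2, E2f3, E2f7, E2f8 and Tfdp1 stand above all normals in all 12 tumors, Rb1 and E2f4 overlap, and Rbl2 is lower in 11 tumors.

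The activating E2F factors rose together in tumors. E2f1, which drives genes of S-phase entry, was lowest at 10.5 CPM, median 29.3 CPM and highest at 46.1 CPM in tumors, against 7.42, 5.58 and 4.74 CPM in normals. Every tumor was above every normal, though greater curvature 2 at 10.5 CPM and corpus 1 at 11.1 CPM came closest to them, and the tumors spread over a wider range than for any pocket protein. The log2 fold change was 2.24 (SE 0.43, adjusted p 0.00469), or 4.73-fold, which lies at the 95.3 percentile of all 16224 genes tested. The raw counts behind it were 140 to 791 in tumors and 62 to 101 in normals.

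E2f3, the other main activator of S-phase genes, ran from 20.2 CPM in corpus 1 to 63.3 CPM in greater curvature 3, with a median of 42.7 CPM, against 16.8, 10.6 and 12.2 CPM in normals. All tumors lay above all normals, and corpus 1 came closest to them. Its log2 fold change was 1.74 (SE 0.32, adjusted p 0.00384). E2f2, an activator of the same class, reached 28.4 CPM at its lowest, 39.7 CPM at its median and 63.3 CPM at its highest in tumors, against 12.9, 16.7 and 25.2 CPM in normals. The groups did not overlap, and the change was smaller, at 1.17 (SE 0.26, adjusted p 0.00851), or 2.24-fold.

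E2f4, the factor that works mainly with pocket proteins to repress, overlapped between the groups in CPM. It was lowest at 42.9 CPM, median 60.1 CPM and highest at 69.7 CPM in tumors, against 42.0, 60.2 and 57.7 CPM in normals, and 6 tumors stood above all normals, the other 6 falling among them. Its log2 fold change was 0.12 (SE 0.17, adjusted p 0.583), and -0.03 without normal 1 (adjusted p 0.928). On TPM it was 0.73 with an adjusted p of 0.00688 by limma, of which 0.30 remained relative to the median gene of the table. In TPM all 12 tumors stood above all normals, so both the call and the overlap depend on which table is used.

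The atypical factors were also higher. E2f7 was lowest at 9.49 CPM, median 21.2 CPM and highest at 34.5 CPM in tumors, against 5.07, 4.97 and 5.58 CPM in normals. The normals were nearly level, at 5.21 ± 0.327 CPM (SD, n = 3), and all tumors stood above them. Its log2 fold change was 2.02 (SE 0.35, adjusted p 0.00331), or 4.06-fold, on 120 to 722 counts in tumors and 57 to 73 counts in normals. E2f8 was lowest at 18.9 CPM, median 30.6 CPM and highest at 33.5 CPM in tumors, against 5.22, 14.7 and 12.8 CPM in normals. Greater curvature 2 and corpus 1 were the lowest tumors, normal 1 was far below the other normals, and the groups did not overlap. Its log2 fold change was 1.40 (SE 0.28, adjusted p 0.00539). Exons of E2f7 overlap those of 1700020G17Rik, and those of E2f8 overlap Gm2788, each on the opposite strand.

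Tfdp1, the DP partner, had the highest mean level per length of the 10 genes in tumors and in normals, although in normal 2 it was at 33.8 TPM and E2f4 at 34.0 TPM. In counts it was lowest at 134 CPM, median 256 CPM and highest at 367 CPM in tumors, against 82.9, 69.7 and 86.9 CPM in normals. All tumors were above all normals, and greater curvature 2 and corpus 1 were again the lowest. The log2 fold change was 1.69 (SE 0.30, adjusted p 0.00332), or 3.22-fold. Across the 10 genes, 8 were called, 7 higher and Rbl2 lower, beside 31.9% of all genes tested called (16.2% higher and 15.7% lower), and the median log2 fold change of the 10 was 1.28 against -0.04 for all genes tested. All 10 passed the filter on low counts. In CPM, the 7 higher genes are also the 7 with every tumor above every normal, a pattern held by 9.58% of genes tested. No gene of the 10 had every tumor below every normal in CPM, as 6.65% of genes did.

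Per length, the order of the 10 genes differed between the groups. In tumors Tfdp1 led at 202 ± 80.9 TPM and E2f4 followed at 50.6 ± 7.95 TPM, then E2f1 at 16.2 ± 7.3 TPM, E2f2 at 15.3 ± 4.46 TPM, E2f3 at 13.9 ± 5.57 TPM, Rb1 at 13.6 ± 2.65 TPM, E2f8 at 12.2 ± 3.12 TPM, Rbl2 at 11.6 ± 1.5 TPM, Rbl1 at 10.8 ± 2.57 TPM and E2f7 at 7.52 ± 3.92 TPM (SD, n = 12). From E2f1 to E2f7 no neighbors in this order differ by more than the larger of their SDs. In normals Tfdp1 averaged 38.2 ± 3.9 TPM and E2f4 30.2 ± 6.07 TPM, followed by Rbl2 at 16.5 ± 8.11 TPM, Rb1 at 10.2 ± 1.55 TPM, E2f2 at 4.65 ± 1.55 TPM, Rbl1 at 3.75 ± 1.38 TPM, E2f8 at 3.07 ± 1.42 TPM, E2f3 at 2.74 ± 0.606 TPM, E2f1 at 2.16 ± 0.461 TPM and E2f7 at 1.34 ± 0.428 TPM (SD, n = 3). E2f1 thus stood above both other activators in tumors, within their spread, and below both in normals.

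**Figure D2:**
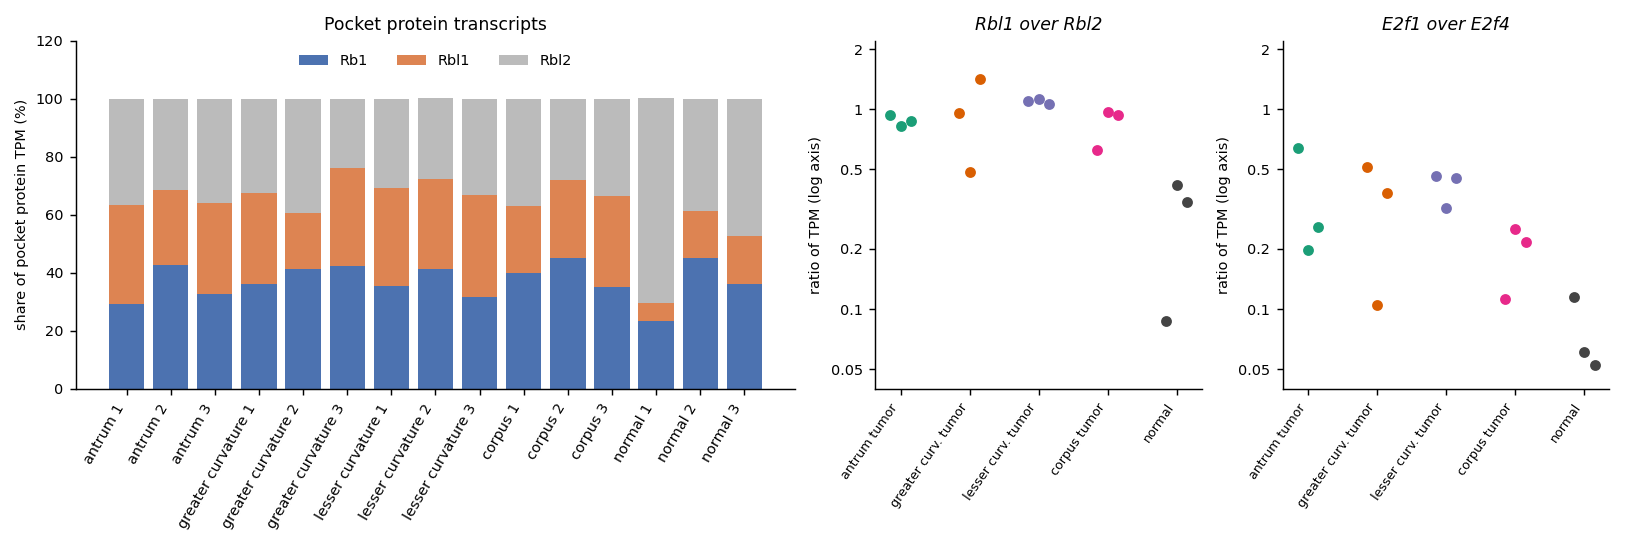
Stacked bars give each pocket protein's percent of the summed pocket protein TPM in every library; points give the ratio of Rbl1 to Rbl2 and of E2f1 to E2f4 TPM in each library, on log axes, by tumor site and in normal tissue. Every tumor has a higher Rbl1 to Rbl2 ratio than every normal, and 10 of 12 tumors have a higher E2f1 to E2f4 ratio.

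The makeup of the E2F transcripts differed as well. E2f1, E2f2 and E2f3 together made up 38.2 ± 6.72% of the summed E2F TPM in tumors (SD, n = 12) and 22.1 ± 5.82% in normals (SD, n = 3), and E2f4 made up 45.2 ± 9.08% in tumors and 68.1 ± 3.95% in normals. The sum was 116 ± 26.5 TPM in tumors and 44.2 ± 7.28 TPM in normals, on the same TPM scale in which the median gene was higher in tumors. The ratio of E2f1 to E2f4 ran from 0.105 to 0.636 in tumors, with a median of 0.289, against 0.115, 0.0607 and 0.0527 in normals. Greater curvature 2 at 0.105 and corpus 1 at 0.112 fell within the normals, and the other 10 tumors lay above them. The mean log2 ratio was -1.82 ± 0.83 in tumors (SD, n = 12) and -3.80 ± 0.60 in normals (SD, n = 3), a difference of 1.99 or 3.96-fold (exact two-sided permutation test over samples, p = 0.00659). The summed level of 6 dividing-cell markers was 510 to 1700 CPM in tumors, median 1180 CPM, and 189 to 369 CPM in normals, and all 6 were higher, by a median log2 fold change of 2.37. The part of the share of dividing cells in the higher E2F levels was not tested.

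Each site was compared with the same 3 normals. In CPM, 7 genes lay above all normals in every tumor of every site: Rbl1, E2f1, E2f2, E2f3, E2f7, E2f8 and Tfdp1. Of all genes tested, 21.9% had this pattern in antrum tumors, 15.2% in greater curvature tumors, 27.4% in lesser curvature tumors and 17.6% in corpus tumors. In antrum tumors 8 of the 10 genes were called, 7 higher and 1 lower (14.7% of all genes tested, 9.59% higher and 5.08% lower), E2f1 leading at 2.40 (SE 0.49, adjusted p 0.0148) and Rbl2 lower at -1.12 (SE 0.32, adjusted p 0.0377). In greater curvature tumors 7 were called, all higher (9.26% of all genes, 6.5% higher and 2.76% lower), with Rbl2 at -0.96 (adjusted p 0.0689). In lesser curvature tumors 8 were called, 7 higher and 1 lower (33.6% of all genes, 18.2% higher and 15.3% lower), and E2f1 at 2.58, E2f7 at 2.41, E2f3 at 2.09 and Tfdp1 at 1.98 had their largest point estimates there. In corpus tumors 2 were called, both higher (3.54% of all genes, 2.35% higher and 1.19% lower), E2f7 at 1.61 (adjusted p 0.0471) and Tfdp1 at 1.39 (adjusted p 0.0456), while E2f8 at 1.27 had an adjusted p of 0.0512 and E2f3 at 1.40 one of 0.0516. In CPM, Rbl2 was below all normals in every tumor of the antrum, lesser curvature and corpus. This pattern was held by 18.8%, 27.3% and 13.4% of genes tested, in that order.

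The counts of calls by site rested on single libraries. For antrum tumors 1 gene was called without normal 3 and 2 were called without antrum 1. There 5 were called without antrum 2, antrum 3, greater curvature 1, lesser curvature 3, corpus 3, normal 1 or normal 2. Without lesser curvature 1 or corpus 2 the count was 6, and it was 8 without each of the others. For greater curvature tumors none was called without greater curvature 1, greater curvature 3, normal 1 or normal 3. There 2 were called without normal 2, and 4 were called without lesser curvature 3. The count was 7 without antrum 1, 8 without greater curvature 2 and 6 without each of the others. For lesser curvature tumors 5 were called without lesser curvature 1, 7 without lesser curvature 3, normal 1 or normal 2, and 8 without each of the others. For corpus tumors 6 were called without greater curvature 2, 4 without greater curvature 3 or corpus 1, and 7 without greater curvature 2 and corpus 1 together, whereas 1 was called without antrum 1 or lesser curvature 2 and none without any other single library. The pooled count of 8 was 7 without normal 1, 8 without each of the others and 8 without greater curvature 2 and corpus 1 together.

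**Figure D3:**
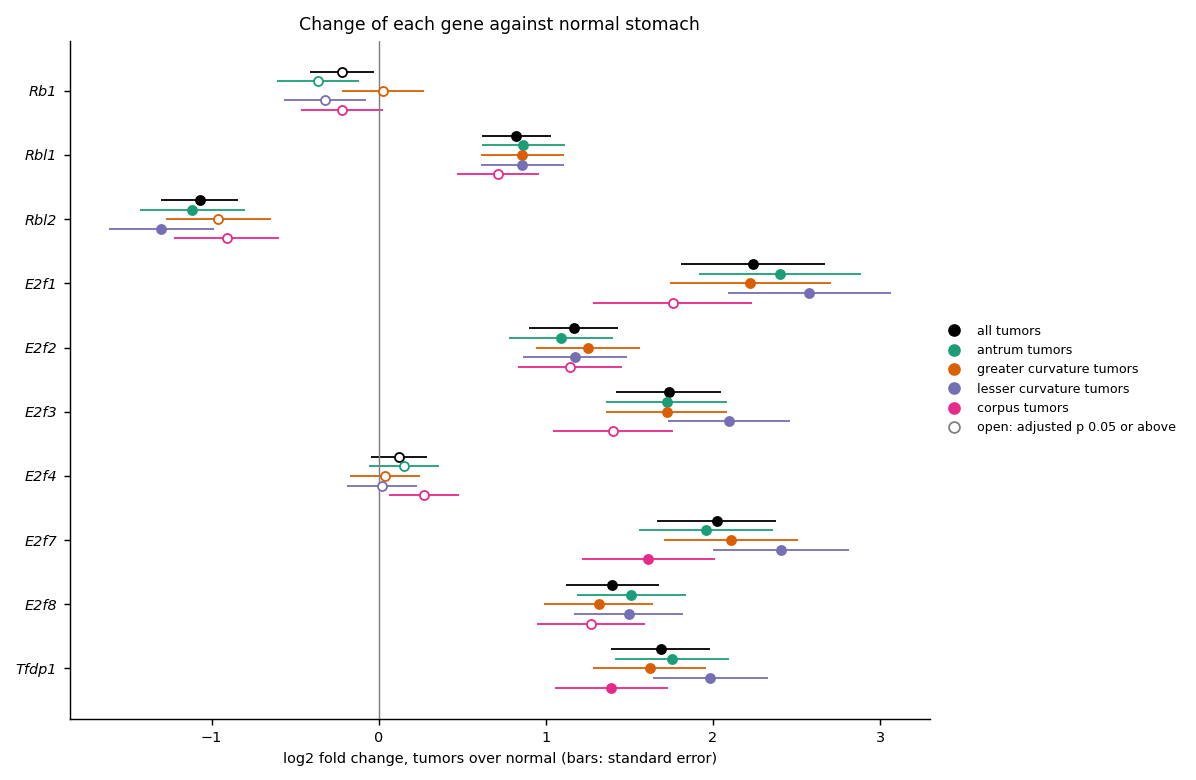
Log2 fold change of each gene over normal, for all tumors and for each site; bars are the standard error and open symbols have an adjusted p of 0.05 or above. The estimates of a gene lie near each other across sites, and those of corpus tumors are the smallest for E2f1, E2f3, E2f7, E2f8 and Tfdp1.

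No difference among the 4 sites was detected. E2f1 was at 46.1, 21.9 and 26.0 CPM in antrum tumors, 36.9, 10.5 and 35.7 CPM in greater curvature tumors, 37.4, 30.9 and 37.8 CPM in lesser curvature tumors, and 11.1, 27.7 and 21.4 CPM in corpus tumors. Tfdp1 was at 341, 211 and 258 CPM in antrum tumors, 276, 134 and 328 CPM in greater curvature tumors, 367, 246 and 335 CPM in lesser curvature tumors, and 138, 255 and 236 CPM in corpus tumors. In both genes the lesser curvature mean was the highest and the corpus mean the lowest, at 35.4 and 20.0 CPM for E2f1 and at 316 and 210 CPM for Tfdp1. The F test among the 4 sites called none of the 10 genes by edgeR (adjusted p 0.891 to 0.992) or by limma on TPM. The likelihood ratio test of DESeq2 called none either, and none had an unadjusted p under 0.05 by edgeR. Over all genes edgeR called 0 of 16224, with 947 at an unadjusted p under 0.05, DESeq2 called 164 and limma on TPM called 3.

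**Figure D4:**
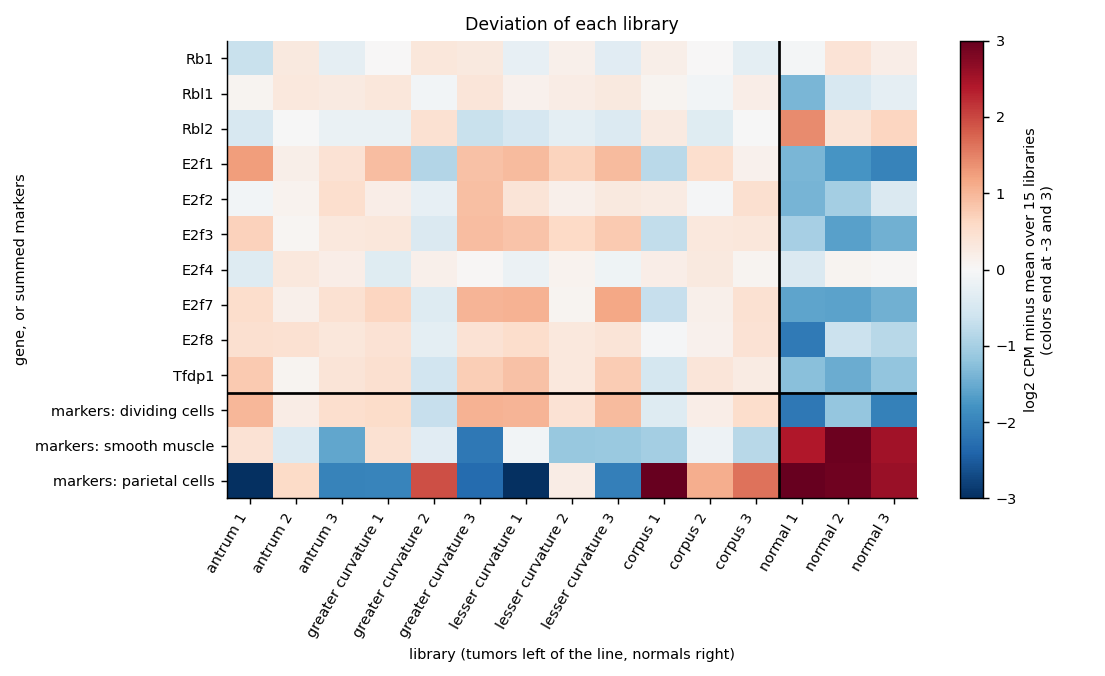
Colors give log2 CPM minus the mean over the 15 libraries for each gene (upper rows) and for summed markers of dividing, smooth muscle and parietal cells (lower rows), with tumors left of the line and normals right. Greater curvature 2 and corpus 1 are the lowest tumors for E2f1, E2f3, E2f7 and Tfdp1.

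The 10 genes were also compared in their levels across the 15 libraries. Likeness was measured as the root mean square difference of log2 CPM after each gene's own mean was taken off. The measure is not scaled by a gene's spread. A small value can thus come from a shared difference between tumors and normals, or from genes that vary little. E2f3 and Tfdp1 were closest at 0.16, followed by E2f7 and Tfdp1 at 0.22 and by Rbl1 and E2f2 at 0.25. Rb1 and E2f4, which both varied little, lay at 0.27. Rbl2 and E2f1 were farthest apart at 1.53. Among 10333 genes of sufficient level, those closest to E2f1 were Cdc7 at 0.16, a kinase that fires replication origins, and Rad51ap1 at 0.19, a recombination factor, then Nap1l1 and Suv39h1 at 0.20 and Trim35 at 0.21. Closest to Rbl1 were Prim2 at 0.16, a primase subunit, Eri1 and Rbbp7 at 0.21, and Mrps22 and Pold3 at 0.22. Closest to E2f8 were Esco2 at 0.16, which acetylates cohesin, Mcm10 at 0.21, Atad2 at 0.22, and Cdc6 and Lig1 at 0.23. Closest to Rb1 were Gopc and Tmem168 at 0.18 and Hdac4, Zbtb18 and Zfp800 at 0.19. As Rb1 varied little, these values need not mean a shared pattern.

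Genes that act with these factors were read from 8 lists of 71 genes in all, beside a median log2 fold change of -0.04 over all genes tested. In all tumors 31.9% of all genes tested were called, 16.2% higher and 15.7% lower. Of 24 genes that E2F factors activate for S phase, all 24 were higher, with a median log2 fold change of 1.76 and a range of 1.19 to 2.30. Mcm4 at 1.86 (adjusted p 0.000788), Gins2 at 1.91 (adjusted p 0.00124) and Mcm3 at 1.71 (adjusted p 0.00164) belong to the replicative helicase, and Uhrf1 at 1.91 (adjusted p 0.00198) maintains DNA methylation. By site, 24, 23, 24 and 16 of them were called higher in antrum, greater curvature, lesser curvature and corpus tumors. Of all genes tested, 9.59%, 6.5%, 18.2% and 2.35% were called higher in these sites, in that order. The MuvB core binds p107 or p130 in resting cells and B-Myb in cycling cells, and with Foxm1 it turns on mitotic genes. Of these 7 genes 4 were higher, with a median of 0.95: Foxm1 at 2.26 (adjusted p 0.00213), Mybl2 at 2.03 (adjusted p 0.00422), Lin9 at 1.94 (adjusted p 0.00693) and the histone chaperone Rbbp4 at 0.95 (adjusted p 0.00866).

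Counts in the other lists stand beside 31.9% of all genes tested called in all tumors, 16.2% higher and 15.7% lower. Of 9 cyclins and kinases that act on pocket proteins 4 were higher and none lower, with a median of 0.26. Ccne1 at 2.66 (adjusted p 0.00203) and Ccne2 at 2.19 (adjusted p 0.00208) encode the cyclins E, Ccna2 at 2.23 (adjusted p 0.00465) encodes cyclin A2, and Cdk4 at 1.63 (adjusted p 0.00532) encodes the partner of D-type cyclins. Of 7 inhibitors 1 was higher, Cdkn2a at 3.65 (SE 1.06, adjusted p 0.0226), which encodes p16 and p19Arf, and 1 was lower, Cdkn1c at -2.17 (adjusted p 0.00124), which encodes p57. Cdkn2b at -1.73 (adjusted p 0.0507) and Cdkn2d at 0.99 (adjusted p 0.0761) did not pass, though DESeq2 gave adjusted p-values of 0.03 and 0.0339 for them. Cdkn2a stood at 3.31 when normal 3 was left out, with an adjusted p of 0.0933, and was then no longer called, and at 5.73 when normal 1 was left out, with an adjusted p of 0.0176. Of 5 ubiquitin ligase subunits 4 were higher with a median of 2.25, led by Skp2 at 2.38 (adjusted p 0.000722), which targets p27, with Cks1b at 2.51, Ccnf at 2.25 and Fbxo5 at 1.83.

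Of the other E2F and DP genes 1 of 3 was higher and 1 lower. E2f6, a repressor that does not bind pocket proteins, was higher at 0.81 (adjusted p 0.00955), Tfdp2, another DP gene, was lower at -0.87 (adjusted p 0.00482), and E2f5 at 0.26 (adjusted p 0.178) did not pass. On TPM, Tfdp2 was not called, at -0.34 (adjusted p 0.138 by limma), and E2f5 was, at 0.75 (adjusted p 0.00676 by limma). Of 10 corepressors that pocket proteins recruit 6 were higher and 1 lower, with a median of 0.38, including the histone methyltransferases Suv39h1 at 2.14 and Ezh2 at 1.53, the deacetylase Hdac2 at 1.27 (adjusted p 0.0129, but 0.0581 without normal 2 and 0.0584 without normal 3) and the histone chaperone Rbbp7 at 0.86. Of 6 death genes that E2F1 can activate none was called by edgeR and none had an unadjusted p under 0.05, whereas DESeq2 called 1 and limma on TPM 2 of 5. Among them Bbc3, which encodes Puma, was at 1.52 (adjusted p 0.125, and 0.0451 by DESeq2), Trp73 at -0.74 (adjusted p 0.544) and Apaf1 at 0.12 (adjusted p 0.654). Trp73 turned to 2.42 when normal 2 was left out, again not called, with an adjusted p of 0.198.

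**Figure D5:**
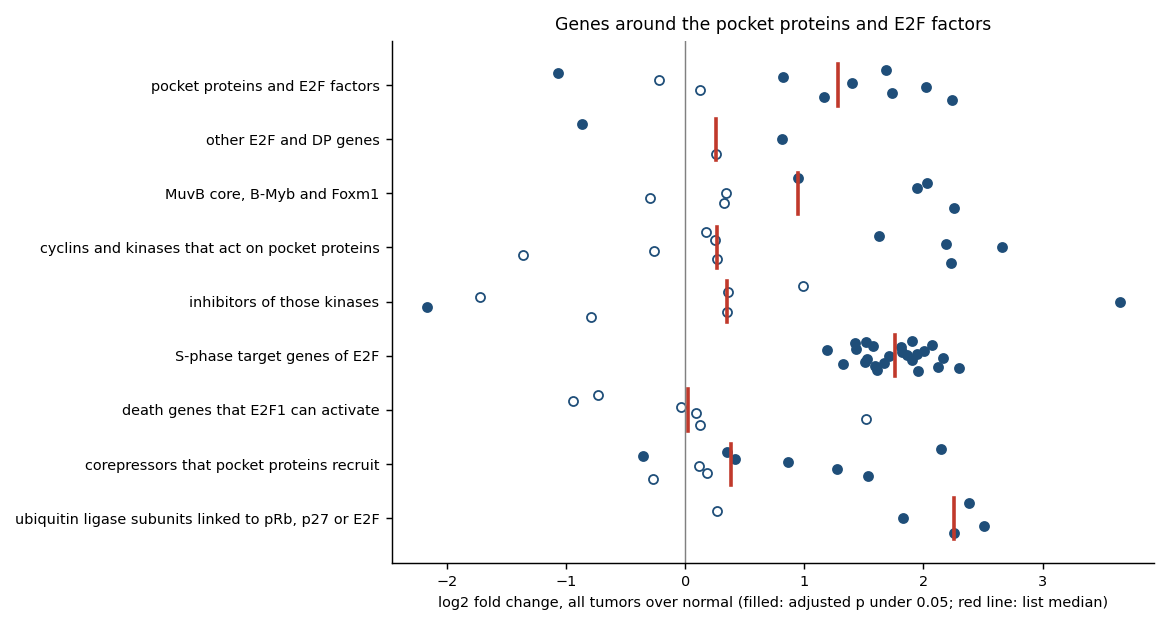
Log2 fold change in all tumors over normal of every gene in each list, with called genes filled and a red line at each list's median. S-phase targets lie between 1.19 and 2.30, while cyclins, inhibitors and death genes spread on both sides of 0.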

How the data were processed

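The deposited count table gives estimated counts per gene as whole numbers, and the other deposited table, named for FPKM, was read as TPM made by the authors because each column sums to 1000000 (FPKM had been assumed). Per the submitters' processing notes, bcl2fastq 2.19, kallisto 0.44.0, sleuth, DESeq2 and GRCm38.p6 were used, without the role of each. Annotation, strand of counting and whether the Myc transgene was counted are not given in any source used here.

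The tests used edgeR 4.0.16 (R 4.3.3) on the counts: filterByExpr with a minimum count of 10, TMM scaling, and 1 robust quasi-likelihood model of 15 libraries by group, with Benjamini-Hochberg adjustment over 16224 genes. All tumors means the mean of the 4 site means, and calls were made where the adjusted p was under 0.05. Fold changes are log2 and SE is their standard error. Log2 CPM used a prior count of 2. Ratios of TPM were compared with exact permutation tests written in Python 3.11.15. The test over samples was checked against scipy 1.17.1 on random numbers. Limma 3.58.1 used log2(TPM + 1) for genes at a TPM of 1 in 3 libraries, a scale that understates changes of low genes. Scripts were tested on simulated data. There the test of all tumors recovered 22.0% of genes with a true log2 change of 1 and 55.6% of those with a change of 2. A gene that was not called may therefore still have changed by that much. Replicates differed by more than sampling noise.

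The other settings were DESeq2 1.42.0, its size factors, no filter on low counts, a replicate block, fits of only the compared groups, both TPM pseudocounts (1 and 0.1), ratios of CPM, and leaving libraries out. The 10 genes, the gene lists and the settings were chosen with earlier results of these data known. Named were all 10 genes, Trp53, Myc and Pou2f3, up to 4 genes per list with the smallest p, and the 5 genes of at least 10 CPM most like Rb1, Rbl1, E2f1 and E2f8; 1 gene of the lists that this rule names is not reported here. Coordinates are from GENCODE M21 on GRCm38. Library totals were 7957165 to 21564972 counts, and each of the 10 genes had at least 57 counts in every library.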

Additional observations from a re-analysis of the deposited data

How the results depend on the processing

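For all tumors, 7 to 8 of the 10 genes were called as libraries were left out in turn, and 8 under every other setting run. These were not always the same 8: with limma on TPM, at both pseudocounts, E2f4 was called higher and Rbl2 was not called, so 8 were higher and 0 lower, against 7 higher and 1 lower by edgeR. The counts by site moved more. Leaving out single libraries gave 1 to 8 calls in antrum tumors, 0 to 8 in greater curvature tumors, 5 to 8 in lesser curvature tumors and 0 to 6 in corpus tumors. A fit of only the compared groups, which has fewer libraries for the spread, gave 4 calls in antrum, 0 in greater curvature and 0 in corpus tumors. Corpus tumors had 0 calls with DESeq2 size factors, 0 with no filter, 7 with DESeq2, 4 with limma on log2(TPM + 0.1) and 7 without greater curvature 2 and corpus 1. The test among sites, an F test or for DESeq2 a likelihood ratio test, called 0 in every setting. The difference in log2 ratio ranged over single libraries left out from 1.26 to 2.39 for Rbl1 to Rbl2 and from 1.76 to 2.33 for E2f1 to E2f4, and its exact p stayed under 0.05.

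Values that turned sign belong to genes that were not called. On TPM with a pseudocount of 1 and of 0.1, Rb1 stood at 0.37 and 0.40 in all tumors, 0.23 and 0.25 in antrum, 0.50 and 0.54 in lesser curvature and 0.27 and 0.29 in corpus tumors, where fold changes were by a median of 0.35 to 0.78 higher per gene than from the counts. With libraries left out, Rb1 in greater curvature tumors lay between -0.082 and 0.15, E2f4 in all tumors between -0.026 and 0.22, in greater curvature tumors between -0.11 and 0.18 and in lesser curvature tumors between -0.13 and 0.12, and Trp73 in all tumors between -1.32 and 2.42. Without greater curvature 2 and corpus 1, Rb1 was at -0.035 and E2f4 at -0.066 in greater curvature tumors. The cause of these changes was not tested.

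With the replicate number as a block, 8 genes were called in all tumors, 8 in antrum, 7 in greater curvature, 8 in lesser curvature and 3 in corpus tumors, and the ratio tests gave p = 0.008 for Rbl1 to Rbl2 (the smallest possible) and p = 0.016 for E2f1 to E2f4 by exact permutation within blocks. What a replicate number shares is not stated, so the numbers were not treated as pairs in the main tests. Deviations of same-numbered libraries from their group means correlated between -0.566 and 0.693, with a mean of 0.141 and 17 of 30 over 0.1. Those of differently numbered libraries had a mean of -0.0715 with 20 of 60 over 0.1. Because deviations within a group sum to 0, the second mean largely follows from the first and is not a separate comparison.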
